A study of Mus musculus with 12 samples.

Results

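The 10 genes described here encode the enzymes and chaperones that hydroxylate and fold procollagen in the endoplasmic reticulum. The rule names them by that function and uses no measured value, though they were proposed with earlier results of these data known, and all 10 were found among the 30130 genes of the deposited table. They comprise the prolyl 4-hydroxylase alpha subunits P4ha1, P4ha2 and P4ha3, their beta subunit P4hb, the lysyl hydroxylases Plod1, Plod2 and Plod3, the prolyl 3-hydroxylase P3h1, the collagen chaperone Serpinh1 and the peptidyl-prolyl isomerase Fkbp10. Bulk RNA-seq of whole proximal thoracic aorta compared 7 libraries of chronic aneurysms (cPTAA) with 5 libraries of sham-operated aortas. All mice were male, of a strain the labels spell C56BL/6J. The aneurysm group received elastase applied around the aorta together with BAPN, an inhibitor of lysyl oxidases, and the sham group had sham surgery and normal water. The labels name no age, time point or batch and do not say whether each library is 1 mouse, so each p-value reflects library-to-library spread, which may be technical. In bulk tissue, fewer cells of a type and less RNA per cell cannot be told apart.

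Procollagen chains are modified while they are being made. Prolyl 4-hydroxylase, a tetramer of 2 alpha and 2 beta subunits, hydroxylates prolines of the repeating triplets, and without this the triple helix is not stable at body temperature. The alpha subunit holds the catalytic site and comes in alternative forms, while the beta subunit is protein disulfide isomerase, which also works on many other proteins. Lysyl hydroxylases modify lysines that later carry sugars or take part in crosslinks made by lysyl oxidases, the enzymes that BAPN blocks. The hydroxylases need iron, oxygen, 2-oxoglutarate and ascorbate. In the wall of the aorta, smooth muscle cells and adventitial fibroblasts are the main makers of fibrillar collagen.

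The RefSeq promoter table (GRCm38.p6, 250 bases before to 50 after a gene's start) held windows for 8 of the 10 genes, 9 windows in all because P3h1 has a pair. The last 150 bases before the start of the 3 alpha subunit genes are shown, because these genes encode interchangeable catalytic subunits and their mRNAs differed most from each other in the comparison below. Capitals mark, on either strand, ACGTG, a form of the core of hypoxia-response elements, and GGGCGG, the GC box. Other forms of that core, such as GCGTG, were not searched or marked. P4ha1 is at chr10:59323146-59323295, P4ha2 at chr11:54100774-54100923 and P4ha3 at chr7:100285370-100285519, all on the plus strand and printed 5′ to 3′.
P4ha1: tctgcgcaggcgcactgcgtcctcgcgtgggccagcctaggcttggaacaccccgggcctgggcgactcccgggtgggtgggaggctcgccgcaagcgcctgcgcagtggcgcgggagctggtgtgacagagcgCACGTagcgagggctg
P4ha2: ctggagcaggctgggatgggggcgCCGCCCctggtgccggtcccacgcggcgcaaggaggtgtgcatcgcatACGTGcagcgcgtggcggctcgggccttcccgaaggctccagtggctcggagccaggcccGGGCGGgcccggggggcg
P4ha3: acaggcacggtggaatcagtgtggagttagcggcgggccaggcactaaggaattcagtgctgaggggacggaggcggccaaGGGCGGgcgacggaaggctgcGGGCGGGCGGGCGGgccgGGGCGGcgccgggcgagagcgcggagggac
The P4ha3 stretch holds 5 matches to the GC box, some of which overlap in a single run, and no ACGTG. The P4ha1 stretch holds 1 ACGTG and no GC box, and the P4ha2 stretch 1 ACGTG and 2 GC boxes. Over the whole 300-base windows of the 8 genes, ACGTG was present in 6 of 9 and GGGCGG in 8 of 9, against 19.6% and 35.7% of all 32851 windows in the table. The 9 windows were 53.3% to 70.3% G and C, and the shares over all windows were not matched for that content. CCAAT was in 4 of the 9 (37.4% of all windows) and TATAAA in 2 (13.6%). The endoplasmic reticulum stress element, which itself starts with CCAAT, was in 0 (0.119%). All were searched on both strands, and a match describes the letters only.

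Values are normalised read counts, each a number of whole reads divided by 1 factor per library, and 1 read was worth 0.863 to 1.16 units. The libraries held 14078885 to 17493428 reads in genes. Differences are cPTAA minus sham on the log2(value + 1) scale, with standard error and Benjamini-Hochberg adjusted p from limma over 21415 genes, and the threshold was 0.05. Of all tested genes 12.9% were higher and 11.1% lower in cPTAA, 23.9% in either direction, and the median difference was -0.05. Dividing by library totals instead gave 3360 genes higher and 1830 lower, against 2754 and 2374 here, and a median of 0.06. Smooth muscle markers were present in all libraries: Acta2 was at 122701 ± 51075 (SD, n = 7) in cPTAA and 141220 ± 23075 (SD, n = 5) in sham, and Myh11 at 34217 ± 18171 and 74348 ± 9771.

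Of the 10 genes, 6 were higher in cPTAA and 0 were lower, where 12.9% and 11.1% of all tested genes were. They were P4ha3, P4hb, Plod2, Plod3, P3h1 and Fkbp10, and the median difference over the 10 genes was 0.72. For 4 of them, P4ha3, P4hb, P3h1 and Fkbp10, every aneurysm library lay above every sham library, against 8.02% of all tested genes, and 0 lay wholly below, against 4.95%. P4ha1, P4ha2, Plod1 and Serpinh1 did not pass the test. The size of the difference ran from 0.03 for P4ha2 to 4.97 for P4ha3.

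**Figure D1:**
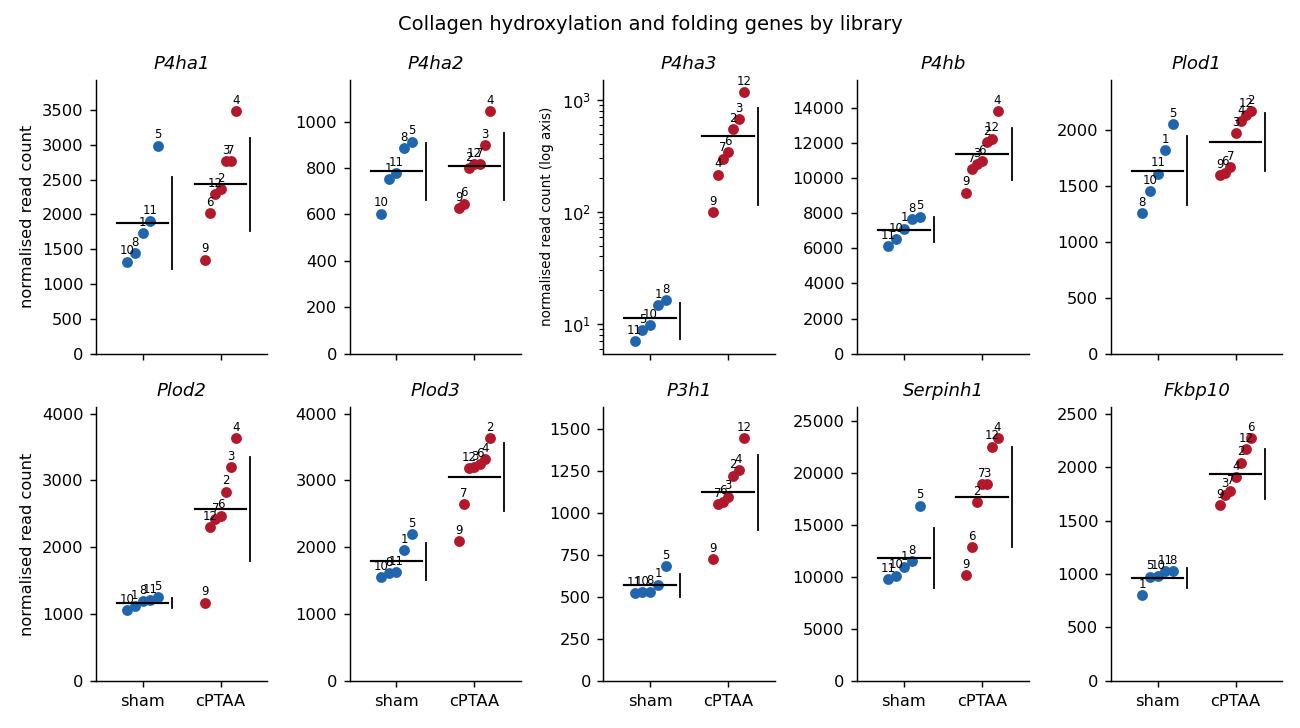
Normalised read count of each of the 10 genes by library, with sham in blue and cPTAA in red, replicate numbers above the points, a horizontal line at the group mean and a vertical line for its SD; P4ha3 is on a log axis and the other axes start at 0. The groups do not overlap for P4ha3, P4hb, P3h1 and Fkbp10, and cPTAA 9 is the lowest aneurysm library in every panel.

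A single aneurysm library, cPTAA 9, was the lowest of the 7 for all 10 genes. Among the sham libraries, sham 5 was the highest for 8 of the 10. Without cPTAA 9, 7 of the 10 genes were higher, against 14.9% of all tested genes, since Serpinh1 then passed as well (adjusted p = 0.0165). cPTAA 9 also had the highest cardiomyocyte marker score of all libraries, 10.28, and the highest brown adipocyte score among the aneurysms, 10.29 (each the mean log2(value + 1) of a marker list). The part of these markers in its low values was not tested.

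The catalytic subunits of prolyl 4-hydroxylase did not change together: P4ha3 rose, while P4ha1 and P4ha2 did not pass the test. P4ha3 read 14.8, 8.77, 16.3, 9.77 and 6.98 in sham 1, 5, 8, 10 and 11. In the aneurysms it ran from 99.0 in cPTAA 9 through a median of 340 to 1171 in cPTAA 12. Every aneurysm library lay above every sham library, and the aneurysms were widely spread among themselves. The sham values rest on few reads, 6 in the library with fewest, whereas the lowest aneurysm library had 101. The means were 478 ± 362 (SD, n = 7) and 11.3 ± 4.01 (SD, n = 5), a ratio of 42.2, and the log2 difference was 4.97 ± 0.48 (adjusted p = 8.90e-06).

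P4ha1, usually the main alpha subunit, had the values 1731, 2990, 1441, 1324 and 1901 in sham 1, 5, 8, 10 and 11. The aneurysms ran from 1351 through a median of 2368 to 3482, and only cPTAA 4 was above sham 5. Its log2 difference was 0.39 ± 0.23 (adjusted p = 0.257, 95% interval -0.11 to 0.88). P4ha2 lay between 603 and 914 in sham and between 626 and 1045 in cPTAA, with medians of 780 and 816. Its log2 difference was 0.03 ± 0.15 (adjusted p = 0.903), with a 95% interval of -0.29 to 0.35.

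The beta subunit P4hb, an abundant disulfide isomerase, rose. It was at 7125, 7801, 7645, 6541 and 6141 in sham 1, 5, 8, 10 and 11, and between 9165 and 13793 in the aneurysms, with a median of 10957. All 7 aneurysm libraries were above all sham libraries. Its log2 difference was 0.68 ± 0.15 (adjusted p = 0.00336).

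Taken per kilobase of exons, so that the subunits can be set side by side, P4ha1 was the most abundant alpha subunit in both groups, at 456 ± 161 in sham and 592 ± 163 in cPTAA. P4ha2 was next in sham, at 126 ± 19.7, and P4ha3 last at 3.61 ± 1.28. In the aneurysms P4ha3, at 152 ± 116, and P4ha2, at 129 ± 23.0, overlapped. P4ha3 therefore made up 0.669% ± 0.313 (SD, n = 5) of alpha subunit mRNA per length in sham, from 0.319% to 1.05%. In cPTAA its share was 16.4% ± 10.1 (SD, n = 7), from 6.33% in cPTAA 4 to 35.2% in cPTAA 12, and all 7 were above all sham libraries. The difference of 15.8 percentage points had an exact two-sided permutation p of 0.00253, the smallest that 7 against 5 libraries can give (adjusted p = 0.0152 over the 6 shares tested).

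The other alpha subunits took correspondingly smaller shares, as shares of a whole must. P4ha2 went from 22.3% ± 4.23 in sham to 15.4% ± 3.01 in cPTAA (exact permutation p = 0.00758, adjusted p = 0.0152). P4ha1 went from 77.0% ± 4.50 to 68.2% ± 8.36 (exact permutation p = 0.0379, adjusted p = 0.0455). The P4ha1 share missed the threshold when values were not divided by length, at -3.84 points, and when any 1 of 10 of the 12 libraries was left out.

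**Figure D2:**
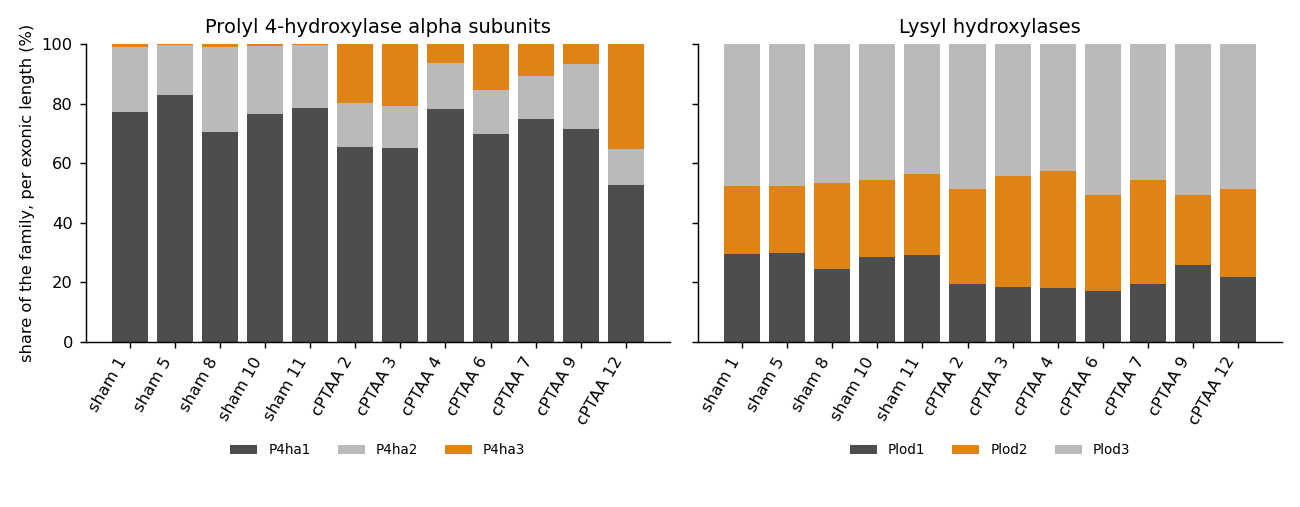
Share of each prolyl 4-hydroxylase alpha subunit (left) and each lysyl hydroxylase (right) in its family in every library, in percent of the normalised read count per exonic length. P4ha3 is at 1.05% or less in every sham library and at 6.33% or more in every aneurysm, and Plod2 takes a larger share in 6 of 7 aneurysms than in any sham library.

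Of the lysyl hydroxylases, Plod2 and Plod3 rose and Plod1 did not pass the test. Plod2 hydroxylates lysines of the telopeptides, the short ends of the collagen molecule from which hydroxylysine-derived crosslinks start. It was nearly even in sham, at 1125, 1255, 1196, 1065 and 1205 in sham 1, 5, 8, 10 and 11. In cPTAA 2, 3, 4, 6, 7, 9 and 12 it was at 2833, 3202, 3628, 2472, 2427, 1171 and 2299. All aneurysms except cPTAA 9 were above all sham libraries, and cPTAA 9 lay inside the sham range. The log2 difference was 1.07 ± 0.22 (adjusted p = 0.00236).

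Plod3 hydroxylates lysines and also adds sugars to hydroxylysine. It lay between 1556 and 2200 in sham and between 2097 and 3628 in cPTAA, with medians of 1624 and 3201. Only cPTAA 9 overlapped the sham libraries. The log2 difference was 0.76 ± 0.15 (adjusted p = 0.00195). In the GRCm38 annotation 529 exonic bases of Plod3, 11.7% of its length, overlap Znhit1 on the opposite strand, and 346 bases of Plod2 (6.42%) overlap Gm38391. The strand setting of the counting is not given in the sources used here, so reads from the shared stretches cannot be told apart.

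Plod1, which mainly hydroxylates lysines of the triple helix, was at 1819, 2054, 1257, 1453 and 1611 in sham 1, 5, 8, 10 and 11. The aneurysms ran from 1596 to 2169, with a median of 1977, and 3 of 7 were above all sham libraries. Its log2 difference was 0.22 ± 0.14 (adjusted p = 0.303, 95% interval -0.09 to 0.52).

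Plod3 was the most abundant lysyl hydroxylase per kilobase in both groups, and its share of the family was 46.2% ± 1.604 in sham and 47.4% ± 3.09 in cPTAA (exact permutation p = 0.447). The Plod2 share was 25.6% ± 2.74 in sham and 32.7% ± 5.19 in cPTAA, 7.11 points higher (exact permutation p = 0.0227, adjusted p = 0.0341). The Plod1 share was 28.2% ± 2.21 and 19.9% ± 2.99, a difference of -8.26 points (exact permutation p = 0.00505, adjusted p = 0.0152). In sham, Plod1 and Plod2 per kilobase were thus close, at 242 ± 45.9 and 217 ± 13.9, and in cPTAA they were at 280 ± 37.8 and 478 ± 145. The Plod shares too are parts of a whole, and the level of Plod1 itself was not lower (log2 difference 0.22 ± 0.14, adjusted p = 0.303). The Plod2 share was no longer past the threshold when 1 of 7 libraries was left out (cPTAA 2, 3, 6 or 7, or sham 1, 5 or 10), with differences of 6.35 to 7.25 points and adjusted p from 0.0519 to 0.0818.

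P3h1 hydroxylates a few prolines at another carbon than prolyl 4-hydroxylase does, in a complex with Crtap and the cyclophilin Ppib. It rose and its groups did not overlap. The sham values were 572, 684, 531, 528 and 523 in sham 1, 5, 8, 10 and 11, and the aneurysms ran from 723 in cPTAA 9 to 1443 in cPTAA 12, with a median of 1096. P3h1 differed by 0.96 ± 0.16 (adjusted p = 0.000410). Its partners rose as well: Crtap was at 3030 ± 620 against 1694 ± 188 (log2 difference 0.82 ± 0.15, adjusted p = 0.00135) and Ppib at 1484 ± 165 against 899 ± 78.6 (0.72 ± 0.11, adjusted p = 0.000317).

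Fkbp10, an isomerase of the endoplasmic reticulum that acts on procollagen and on lysyl hydroxylation, rose. It was at 801, 976, 1029, 983 and 1025 in sham 1, 5, 8, 10 and 11. In cPTAA 2, 3, 4, 6, 7, 9 and 12 it was at 2043, 1742, 1906, 2269, 1778, 1641 and 2167. The groups were far apart, and the coefficients of variation were 9.71% in sham and 12.05% in cPTAA. Fkbp10 differed by 1.003 ± 0.12 (adjusted p = 3.67e-05). In GRCm38, 193 of its exonic bases (6.58%) overlap Nt5c3b on the opposite strand.

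Serpinh1, a chaperone that binds the folded procollagen triple helix, was the most abundant of the 10 genes per kilobase in both groups, at 4854 ± 1182 in sham and 7258 ± 1963 in cPTAA. Its values were 10922, 16880, 11543, 10147 and 9800 in sham 1, 5, 8, 10 and 11. In cPTAA 2, 3, 4, 6, 7, 9 and 12 they were 17211, 18953, 23353, 12891, 18929, 10216 and 22558. The aneurysms other than cPTAA 6 and 9 were above sham 5, the highest sham library. The log2 difference was 0.56 ± 0.23 and missed the threshold (adjusted p = 0.0986, 95% interval 0.06 to 1.06). It passed by DESeq2 (adjusted p = 0.0402) and by limma-voom with sample weights (0.00961).

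Per kilobase, Serpinh1 and then P4hb were far above the other 8 genes in both groups, P4hb at 2464 ± 248 in sham and 3968 ± 518 in cPTAA. In cPTAA, Plod3 (674 ± 112), Fkbp10 (659 ± 79.4) and P4ha1 (592 ± 163) followed without differing beyond their spread, then Plod2 (478 ± 145), P3h1 (292 ± 58.0) and Plod1 (280 ± 37.8). In sham, P4ha1 (456 ± 161), Plod3 (396 ± 61.7) and Fkbp10 (328 ± 31.9) overlapped likewise, and P3h1 was at 148 ± 17.6.

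Collagens, the substrates of these enzymes, were higher as well. Of 18 collagen genes tested 9 were higher and 0 lower, where 12.9% and 11.1% of all tested genes were. Their median log2 difference was 0.94, against -0.05 over all tested genes. Col8a1, of the short-chain collagens, was at 13639 ± 8804 against 356 ± 175 (5.04 ± 0.51, adjusted p = 1.11e-05). Col12a1, which associates with collagen fibrils, was at 3861 ± 4207 against 226 ± 58.1 (3.45 ± 0.59, adjusted p = 0.000623), and Col16a1 had a difference of 1.96 ± 0.30 (adjusted p = 0.000273). The chains of the main fibrillar collagens differed by 1.76 ± 0.35 for Col1a1, 1.48 ± 0.30 for Col1a2 and 1.595 ± 0.34 for Col3a1 (adjusted p = 0.00189, 0.00218 and 0.00334).

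Each gene was also measured relative to the mean log2 value of Col1a1, Col1a2 and Col3a1 in the same library. On that scale P4ha3 alone among the 10 was higher in cPTAA, by 3.36 ± 0.43 (adjusted p = 4.58e-06), where 2.21% of all tested genes were. Lower by that measure were 6 of the 10, P4ha1 (-1.23), P4ha2 (-1.58), P4hb (-0.93), Plod1 (-1.39), Plod3 (-0.85) and Serpinh1 (-1.05). Of all tested genes 78.5% were lower on this scale and 80.7% passed in either direction, with a median of -1.67. Plod2 (-0.54, adjusted p = 0.173), P3h1 (-0.65, adjusted p = 0.0723) and Fkbp10 (-0.61, adjusted p = 0.105) did not pass. Without the 4 libraries of highest cardiomyocyte score (cPTAA 6, 7 and 9 and sham 8), 8 of the 10 were lower, against 84.1% of all tested genes, as P3h1 (-0.97, adjusted p = 0.0294) and Fkbp10 (-1.04, adjusted p = 0.0218) then passed. P3h1 also passed without cPTAA 7 (-0.74, adjusted p = 0.0432). Without sham 1 or without sham 5, 3 of the 10 were lower on this scale, against 72.4% and 77.2% of all tested genes. P4hb lost its call without any of 8 libraries (cPTAA 2, 3 or 4 or any sham library; adjusted p from 0.0508 to 0.0973), Plod3 without any of 6 (cPTAA 3 or 4 or sham 1, 5, 10 or 11; 0.0523 to 0.105) and Serpinh1 without sham 1 or 5 (0.0648 and 0.0708). Relative to 10 fibroblast marker genes, P4ha3 was higher by 4.31 and only P4ha2 and Plod1 were lower, where 6.17% of all tested genes were higher and 45% lower. P4hb, Plod2, Plod3, P3h1 and Fkbp10 then turned to positive differences that did not pass the test.

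**Figure D3:**
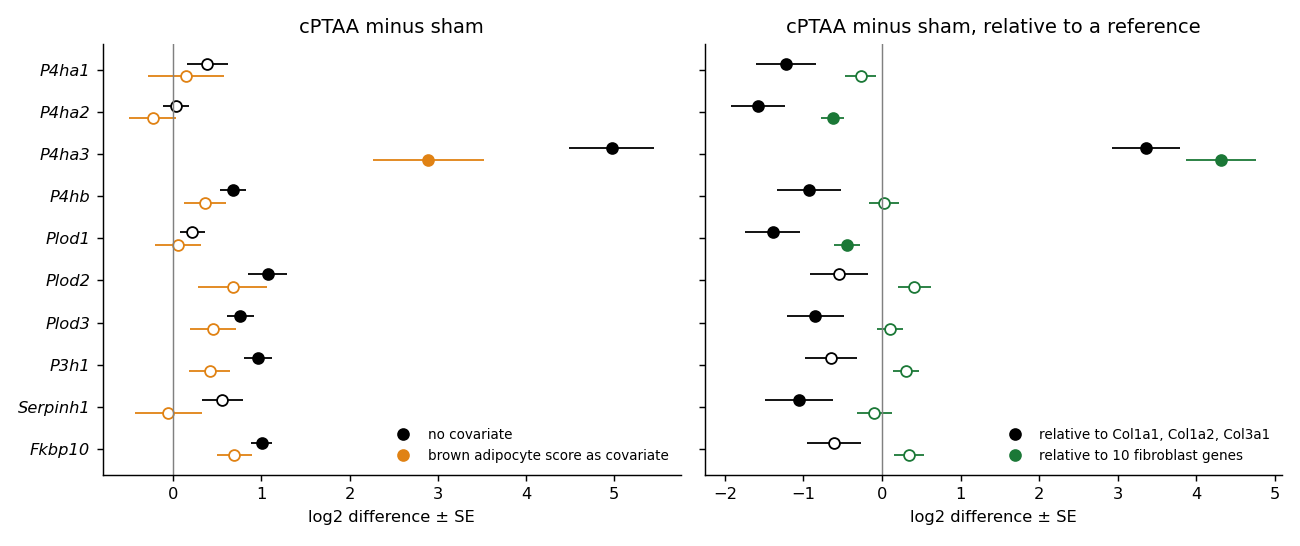
Left, log2 difference (cPTAA minus sham) ± SE of each of the 10 genes, with no covariate and after adding the brown adipocyte score; right, the same relative to Col1a1, Col1a2 and Col3a1 or to 10 fibroblast genes; filled points have an adjusted p under 0.05. P4ha3 lies far right of the other 9 genes in every fit, and it is the only filled point with the covariate.

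Within the 7 aneurysm libraries, 4 of the genes were set against fibrillar collagen mRNA, and no relation passed after adjustment. Against the mean log2 value of the 3 chains, Pearson's r was 0.77 for P4ha3 (exact permutation p = 0.0470, adjusted p = 0.188; Spearman's rho 0.71, exact p = 0.0881, adjusted 0.219). For Serpinh1 r was 0.64 (exact permutation p = 0.128, adjusted p = 0.256; rho 0.68, exact p = 0.110, adjusted 0.219). For P4ha1 and Plod2 r was 0.26 (exact permutation p = 0.526, adjusted 0.526; rho 0.14, exact p = 0.783) and 0.29 (exact permutation p = 0.423, adjusted 0.526; rho 0.36, exact p = 0.444). The relations of P4ha1 and Plod2 depended on single libraries, and those of P4ha3 and Serpinh1 stayed positive with any 1 library left out (0.57 to 0.83 and 0.58 to 0.77). cPTAA 12 had the highest collagen level, 16.33 against 14.36 to 15.11 in the others, while its P4ha1 and Plod2 were below the aneurysm median. Without cPTAA 12 and cPTAA 7, the 2 libraries farthest from the median, r was 0.94 for P4ha1, 0.68 for P4ha3, 0.91 for Plod2 and 0.97 for Serpinh1 (n = 5). Without cPTAA 9 it was -0.09 for P4ha1 and -0.13 for Plod2.

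**Figure D4:**
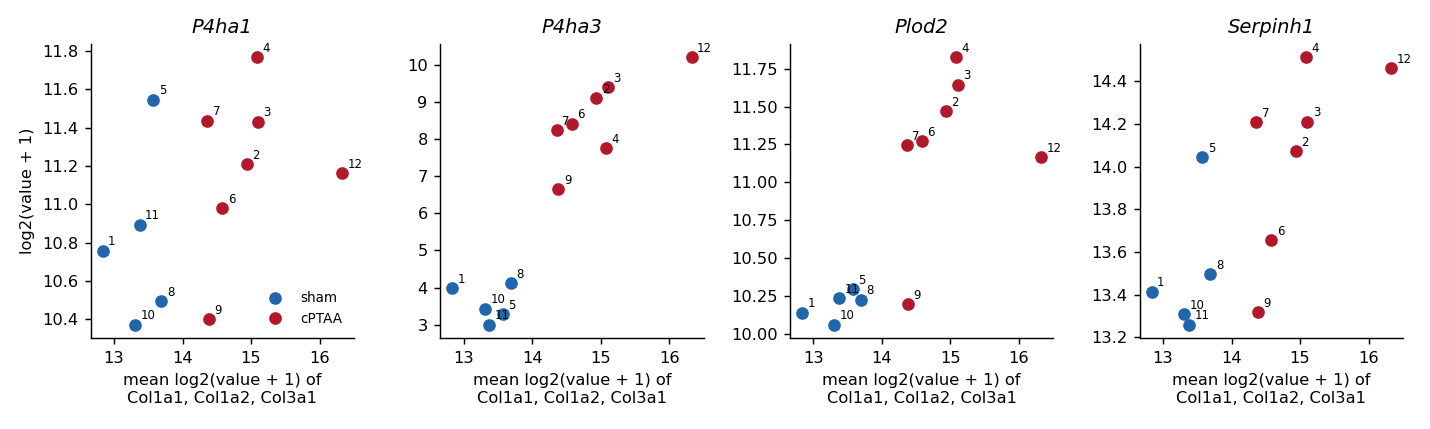
log2(value + 1) of P4ha1, P4ha3, Plod2 and Serpinh1 against the mean log2(value + 1) of Col1a1, Col1a2 and Col3a1, with sham libraries in blue, cPTAA in red and replicate numbers beside the points. cPTAA 12 stands apart on the collagen axis, and is the highest for P4ha3 but not for P4ha1 or Plod2.

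The genes whose levels followed P4ha3 most closely over the 7 aneurysm libraries, among 11798 genes with a mean of at least 50 there, were Vdr (r = 0.997), Phtf1 (0.984), Amotl2 (0.982), Plk2 (0.981) and Thbs2 (0.980). These r values describe 7 libraries that also differ in their cell type marker scores, and the genes were picked for them. Thbs2, a matricellular glycoprotein, was at 8309 ± 7220 against 1125 ± 225 (log2 difference 2.46 ± 0.49, adjusted p = 0.00191). Vdr, the vitamin D receptor, was at 91.0 ± 61.1 against 24.0 ± 3.17 (1.62 ± 0.41, adjusted p = 0.00956). Phtf1 did not pass the test (0.36 ± 0.19, adjusted p = 0.187). The other 9 genes of the group were less close to P4ha3: P3h1 had an r of 0.80, Plod3 0.69, Plod1 0.65, Serpinh1 0.61, Fkbp10 0.55, Plod2 0.51, P4hb 0.43, P4ha1 0.39 and P4ha2 0.33. Of the 10 activated fibroblast markers, r was taken only for Cthrc1 (0.97), Fap (0.90) and Postn (0.58), named after their values were seen. These were higher in cPTAA, as were 7 of the 10, against 12.9% of all tested genes. Adam12 (-1.27 ± 0.39, adjusted p = 0.0275) and Lrrc15 (-1.93 ± 0.53, adjusted p = 0.0154), of the same list, were lower. The r of the other markers with P4ha3 was not taken.

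Other genes of procollagen modification mostly rose or did not pass, where 12.9% of all tested genes were higher and 11.1% lower. Of 9 genes of the prolyl 3-hydroxylase complex and the isomerases outside the 10, 8 were higher and 0 lower (median 0.72). Fkbp11, an isomerase of secretory cells, was at 177 ± 54.5 against 37.9 ± 7.13, a log2 difference of 2.17 ± 0.22 (adjusted p = 1.36e-05). The 1 gene that did not pass, named for that reason, was P3h2, with 145 ± 46.0 in cPTAA and 209 ± 38.2 in sham (-0.58 ± 0.24, adjusted p = 0.0913); it passed without cPTAA 7 (adjusted p = 0.0497). P3h2 acts mainly on basement membrane collagen.

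Of 8 genes for collagen galactosylation and the cofactors of the endoplasmic reticulum 4 were higher and 0 lower (median 0.51). They were the galactosyltransferase Colgalt1 (0.73 ± 0.14, adjusted p = 0.00186), the transcription factor Creb3l1 (0.83 ± 0.18, adjusted p = 0.00361), the zinc transporter Slc39a13 (0.55 ± 0.13, adjusted p = 0.00815) and the calcium-binding protein Rcn3 (0.64 ± 0.17, adjusted p = 0.0113). Of 11 procollagen export genes 3 were higher and 1 lower (median 0.26), where 12.9% and 11.1% of all tested genes were. Those higher were the retrieval receptors Kdelr3 (0.98 ± 0.13, adjusted p = 9.82e-05) and Kdelr2 (0.77 ± 0.14, adjusted p = 0.000857) and the coat GTPase Sar1a (0.45 ± 0.12, adjusted p = 0.0161). Klhl12, an adaptor for the ubiquitylation that enlarges transport vesicles, was lower, at 239 ± 21.4 against 319 ± 44.5 (-0.41 ± 0.13, adjusted p = 0.0365), a call lost under TMM scaling (adjusted p = 0.0620) and without cPTAA 2, 3 or 6 or sham 1, 5 or 10 (0.0534 to 0.0983). Sar1a was lost without sham 11 (adjusted p = 0.0508).

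Of 20 general chaperones and stress genes of the endoplasmic reticulum 10 were higher and 0 lower (median 0.50), where 12.9% and 11.1% of all tested genes were. Those higher included Sdf2l1 (1.71 ± 0.20, adjusted p = 3.79e-05), Dnajb11 (0.75 ± 0.11, adjusted p = 0.000218) and Atf4 (0.82 ± 0.13, adjusted p = 0.000369). Sdf2l1 and Dnajb11 work with the chaperone BiP, and Atf4 is a transcription factor of the stress response.

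Among other dioxygenases that use 2-oxoglutarate none passed as higher: of 15 tested 0 were higher and 4 lower (median -0.34). Of all tested genes 12.9% were higher and 11.1% lower. Those lower among the 15 are given next. They were the peroxisomal Phyh (-1.49 ± 0.32, adjusted p = 0.00320), the oxygen sensors Egln3 (-1.31 ± 0.30, adjusted p = 0.00562) and Egln1 (-0.83 ± 0.28, adjusted p = 0.0397), and the DNA demethylase Tet1 (-0.97 ± 0.32, adjusted p = 0.0369). Egln1 was lost without cPTAA 2, 3, 4, 6 or 7 or sham 1, 10 or 11 (adjusted p from 0.0546 to 0.113) and Tet1 was lost without cPTAA 3, 6 or 9 or sham 1, 5, 8 or 11 (0.0513 to 0.0942). After the brown adipocyte score was added to the fit, 0 of the 15 were lower, where only 0.658% of all tested genes were. Phyh was then at -0.064 (adjusted p = 0.935) and Egln3 at -0.032 (adjusted p = 0.969).

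P4ha1, P4ha2 and Plod2 are known targets of hypoxia-inducible factors. Of 12 other such targets 2 were higher and 4 lower (median -0.31), where 12.9% and 11.1% of all tested genes were. Adm rose by 0.75 ± 0.19 (adjusted p = 0.00833) and Ndrg1 by 0.64 ± 0.19 (adjusted p = 0.0241). Vegfa fell by 1.18 ± 0.18 (adjusted p = 0.000252), Bnip3 by 1.38 ± 0.24 (adjusted p = 0.000796) and Pdk1 by 0.68 ± 0.19 (adjusted p = 0.0150), and Egln3 is the fourth. Ndrg1 did not pass without sham 8, 10 or 11 (adjusted p from 0.0566 to 0.0720). With the same score added, 0 of the 12 were higher and 0 lower, where only 1.76% and 0.658% of all tested genes were. Adm was then at 0.14 (adjusted p = 0.784), Bnip3 at -1.17 (0.144) and Vegfa at -1.26 (0.0606, though it passed by edgeR, 0.0393).

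Marker levels of other cell types moved with the groups. Brown adipocyte markers were lower: 10 of 10 fell, against 11.1% of all tested genes. The list's score was 6.75 to 10.29 in cPTAA and 10.56 to 12.13 in sham, without overlap. Ucp1 was at 10248 ± 9301 against 45656 ± 19933 and Cidea at 3202 ± 2868 against 17183 ± 5529. The extremes of the score matched those of P4ha3 among the aneurysms: cPTAA 12 had the lowest brown score and the highest P4ha3, and cPTAA 9 the highest score and the lowest P4ha3. The libraries between them did not keep that order. cPTAA 3, with a score of 9.42, had P4ha3 at 672, and cPTAA 4, with a score of 8.90, had it at 215. After the brown score was added as a covariate, P4ha3 still passed (2.89, adjusted p = 0.0326), and 376 of all tested genes (1.76%) were higher and 141 (0.658%) lower. P4hb (0.36, adjusted p = 0.364), Plod2 (0.68, 0.298), Plod3 (0.45, 0.305), P3h1 (0.41, 0.286) and Fkbp10 (0.70, 0.0721) did not. Of the 28 neighbouring genes of modification and export only Fkbp11 passed, of the 20 chaperones and stress genes 4 were higher, and of the 18 collagens 1, Col8a1 (2.80, adjusted p = 0.0369). Since the score does not overlap between the groups, its part and that of the group cannot be told apart for these genes.

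**Figure D5:**
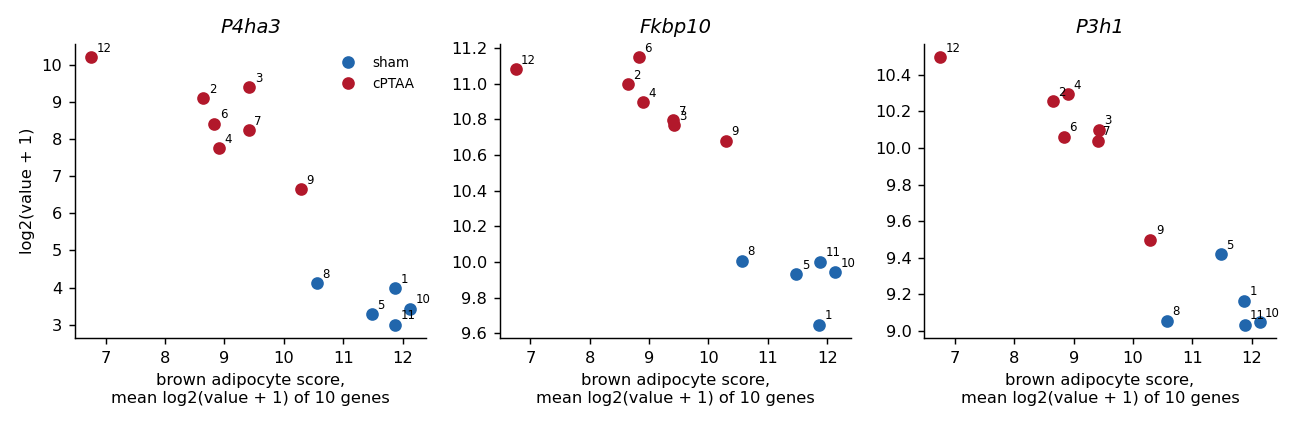
log2(value + 1) of P4ha3, Fkbp10 and P3h1 against the brown adipocyte score, the mean log2(value + 1) of 10 marker genes, with sham libraries in blue, cPTAA in red and replicate numbers beside the points. The scores of the groups do not overlap, and cPTAA 12 and cPTAA 9 lie at the ends of the aneurysm range for the score and for P4ha3. The aneurysm libraries between them do not keep that order.

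Several other marker lists differed as well, and their part in the results was not tested. Fibroblast markers had a score of 11.37 to 11.96 in cPTAA and 10.54 to 11.27 in sham (4 of 10 higher, 1 lower), with Dcn at 24657 ± 2868 against 16376 ± 4462 and Lox at 11266 ± 6087 against 1896 ± 258. This list was mixed: Clec3b was lower, at 1248 ± 203 against 2238 ± 353 (-0.84 ± 0.15, adjusted p = 0.000778). Scara5, Pi16 and Dpep1 had negative differences that did not pass. Activated fibroblast markers were higher in 7 of 10 and lower in 2, macrophage markers higher in 9 of 10 and lymphocyte markers in 10 of 10. Fn1, of the first list, was at 63653 ± 23810 against 10674 ± 2253, Lyz2, of macrophages, at 24464 ± 4660 against 7290 ± 7623, and Cd79a, of B cells, at 218 ± 265 against 11.02 ± 8.24. Smooth muscle markers were lower in 5 of 10, endothelial in 5 of 9, white adipocyte in 6 of 9 and mesothelial in 2 of 7, with none higher in these 4 lists. Of 9 chondrocyte markers 2 were higher and 1 lower, where 12.9% and 11.1% of all tested genes were. None of the erythroid, cardiomyocyte or skeletal muscle markers tested passed. The cardiomyocyte score nevertheless ran from 4.64 to 10.28 in cPTAA and from 6.37 to 8.86 in sham. Without cPTAA 6, 7 and 9 and sham 8, the 4 libraries in which it was highest, Serpinh1 passed (0.81, adjusted p = 0.00922) and the other 6 genes kept their calls.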

How the data were processed

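Per the labels' protocols, snap-frozen tissue was ground, RNA was extracted with TRIzol, and mRNA was captured on oligo-dT beads and primed with random hexamers. The submitters' processing notes name HISAT2 2.0.5, StringTie, featureCounts 1.5.0-p3 and GRCm39. The strand setting, scaling and filters are not given in the sources used here. The deposited values are a normalised signal: 100% of them were whole reads (within 0.02 reads) divided by 1 factor per library, and those factors lay within 0.254% of median-of-ratios factors. No libraries were duplicates by a chi-square comparison of recovered reads.

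Groups came from the labels. Genes with a value of at least 1 in at least 5 libraries were tested with limma 3.58.1 (R 4.3.3, trend) on log2(value + 1), with p-values adjusted by Benjamini-Hochberg. As the alternative for recovered reads, edgeR 4.0.16 called 2622 genes higher and 2261 lower, and DESeq2 1.42.0 called 3182 and 2558. Shares were compared by exact two-sided permutation over 792 splits, adjusted over 6 shares. Exonic lengths and overlaps are from GENCODE GRCm38, and promoters from RefSeq GRCm38.p6; no coordinates were taken to the files' build. The fitting script was tested on simulated data.

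The 10 genes and all lists were chosen with earlier results of these data known. All 10 were named, and of each pathway list the 3 genes with the smallest p in each direction, or all where 5 or fewer passed. Of cell type lists 1 or both of the 2 genes with the highest mean were named, for the lists that differed most, and the 5 protein-coding genes most correlated with P4ha3 were named. For the fibroblast and activated fibroblast lists, markers that went the other way were named too.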

Additional observations from a re-analysis of the deposited data

Results flagged for a closer look

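Groups of 7 or 5 libraries were searched for a single library far from the others, for the values and shares of the 10 genes. Of 32 groups tested 4 held such a library, and chance gives about 1 in 20. Serpinh1 was at 16880 in sham 5, against 11543 in the nearest other sham library, a gap of 0.754 of the group's range. Fkbp10 was at 801 in sham 1, below the next sham library at 976, a gap of 0.767 of the range. The P4ha2 share of alpha subunit mRNA was 21.8% in cPTAA 9, against 15.5% in the nearest aneurysm (0.668 of the range), and lay inside the sham range. The Plod1 share of lysyl hydroxylase mRNA was 24.3% in sham 8, against 28.4% in the nearest sham library (0.760 of the range). sham 8 also had the highest chondrocyte marker score of all libraries, 9.52, and its part in this value was not tested.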

How the results depend on the processing

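No paired analysis was possible because the groups share no replicate numbers in the labels. Of the 10 genes, 6 or 7 were higher and 0 lower under every other pseudocount, filter, scaling, tool and left-out library run. In those runs 8.34% to 17.6% of all tested genes were higher. Once a brown adipocyte score entered the fit as a covariate, 1 of the 10 was higher by limma, against 1.76% of all tested genes. By edgeR (an alternative chosen after seeing the data) it was also 1, against 4.04%. The cause was not tested. With that covariate 1 of the neighbouring pathway genes was higher by both tools. Leaving out 1 library gave 12 to 18 of them higher and 0 to 2 lower, against 10.6% to 14.9% and 8% to 13.3% of all tested genes. The neighbouring genes lower were 0 without a filter, with TMM, with library totals and with the covariate by both tools, 2 by voom, and 3 without the 4 libraries of highest cardiomyocyte score (chosen after seeing the data). In these runs 0.658% to 15.7% of all tested genes were lower. Signs turned with the covariate by limma and edgeR for P4ha2 (-0.23 and -0.23) and Serpinh1 (-0.053 and -0.031), by edgeR for Phyh (0.079) and Egln3 (0.048), and for P4ha2 without cPTAA 4 (-0.033) or sham 10 (-0.059), its range over left-out libraries being -0.059 to 0.090. Relative to collagens, 3 genes were lower against all substrate collagens (70.1% of all tested genes) and 2 against fibroblast genes (45%), where P4hb (0.024), Plod2 (0.41), Plod3 (0.10), P3h1 (0.30) and Fkbp10 (0.34) turned sign. Leaving out 1 library gave 3 to 7 lower, against 72.4% to 80.5% of all tested genes, and leaving out the 4 libraries gave 8, against 84.1%. The P4ha1 share differed by -3.84 points without length (adjusted p = 0.303) and by -13.3 without the 4 libraries (0.103). With 1 library left out, share differences ran from -10.5 to -6.23 (P4ha1), -8.33 to -5.38 (P4ha2), 12.7 to 17.5 (P4ha3), -9.23 to -7.76 (Plod1), 6.02 to 8.61 (Plod2) and 0.54 to 1.91 points (Plod3). Likewise r with fibrillar collagen ran from -0.095 to 0.63 (P4ha1), 0.57 to 0.83 (P4ha3), -0.13 to 0.77 (Plod2) and 0.58 to 0.77 (Serpinh1). Without the 2 libraries farthest from the median (n = 5), Pearson's r was 0.94, 0.91 and 0.97 for P4ha1, Plod2 and Serpinh1 (exact permutation, adjusted p = 0.0222). Spearman's rho was 0.9 for each and did not pass (exact permutation, adjusted p = 0.111). The causes were not tested. P4ha3 in sham rests on as few as 6 reads, which limits the precision of its fold.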
